A study of Mus musculus with 27 samples.

Results

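The genes described here are 46 genes of the mitotic spindle, the kinetochore and the passage from G2 into mitosis, listed by symbol. Each was read from the probe set annotated to its symbol alone, and for Top2a, which had several, the one with the highest average signal in the 27 arrays was kept. Of the 46 genes, 45 were measured, among 19938 genes of the series with a probe set of their own. Ccnb1, which encodes cyclin B1, had no such probe set. Expression was measured in TAMH cells, a line of mouse hepatocytes with a transforming growth factor alpha transgene that all cultures carried, controls included. The cells came from passages 25 to 35, were taken to confluence without serum, and then received acetaminophen (APAP) at 2 mM, its isomer AMAP at 2 mM, or control medium for 2, 6 or 24 h. The isomers differ in where the hydroxyl group sits on the ring, para to the amide nitrogen in APAP and meta to it in AMAP. The 9 groups of treatment and time hold 3 arrays each, with 30, 31 or 32 after the letter P in their titles. These numbers lie within the range of passages, but the labels do not say what they stand for or whether the cultures were separate. The p-values below therefore measure the spread between these samples, which may be technical, and the number of arrays limits the precision. The question that the comparisons address is how each isomer changes expression over time relative to control medium and to the other isomer.

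Cells that enter mitosis switch on a shared set of transcripts late in the cycle. CDK1 bound to its cyclins drives entry, kinetochores tie each chromosome to spindle microtubules, and the spindle assembly checkpoint holds back the anaphase promoting complex until every kinetochore is attached. Separase then cuts the link between sister chromatids, condensins keep the chromosomes compact, and a contractile ring divides the cell. Transcripts of these genes are abundant in dividing cells and scarce in the quiescent hepatocytes of adult liver, while hepatocyte lines such as TAMH divide in culture.

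The mean log2 signal of the 45 genes lay between percentile 64.3 (Cdc25b) and percentile 98.1 (Mad2l1) of all genes. Values are compared between groups for 1 gene at a time, since signals of different probe sets are not on a common scale. The 9 hepatocyte marker genes had a median percentile of 98.3, with control means between 6.39 for Serpinc1 and 13.68 for Alb, the albumin gene. Markers of macrophages and leukocytes (7 genes), endothelial cells (6 genes) and fibroblasts or stellate cells (7 genes) had median percentiles of 21.3, 25.4 and 38.6, although Cd14 reached 11.01 and the matrix gene Dcn 12.02 in control cultures. The macrophage marker Adgre1 had 5.05, and the part of other cells in the results was not tested. Array medians lay between 6.92 and 7.07.

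Some arrays stood apart for these genes. At 6 h the array numbered 32 had the lowest average of the 45 genes in each treatment, at -0.53 with APAP, -0.19 with AMAP and -0.10 with control, as the mean deviation of each gene from its own 27-array mean on the log2 scale. Arrays 30 and 31 at 6 h averaged -0.22 and -0.32 with APAP, 0.14 and 0.18 with AMAP, and 0.21 and 0.20 with control. At 24 h the APAP array numbered 31 averaged -0.45, against 0.00 and -0.08 for the other APAP arrays. The averages at 24 h were 0.08, -0.08 and -0.01 with AMAP and 0.12, 0.18 and 0.04 with control. At 2 h they were -0.10, -0.06 and -0.15 with APAP, 0.11, 0.33 and 0.10 with AMAP, and 0.11, 0.27 and 0.21 with control. The APAP arrays were thus the lowest 3 at 2 h and at 6 h, while at 24 h APAP array 30 overlapped the AMAP arrays. These arrays also stood apart over all 19938 genes, on principal components (PC), which are axes of shared variation. On PC4 the 6 h arrays numbered 32 lay at 16.76 with APAP, 18.91 with AMAP and 11.09 with control. The other 6 h arrays lay between -5.79 and -1.35. On PC1 APAP array 31 at 24 h had the highest value of all arrays, 31.4. What set these arrays apart was not tested, and counts without single arrays are given beside the results below. Triplets of values in the text are in the order of arrays 30, 31 and 32.

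**Figure D1:**
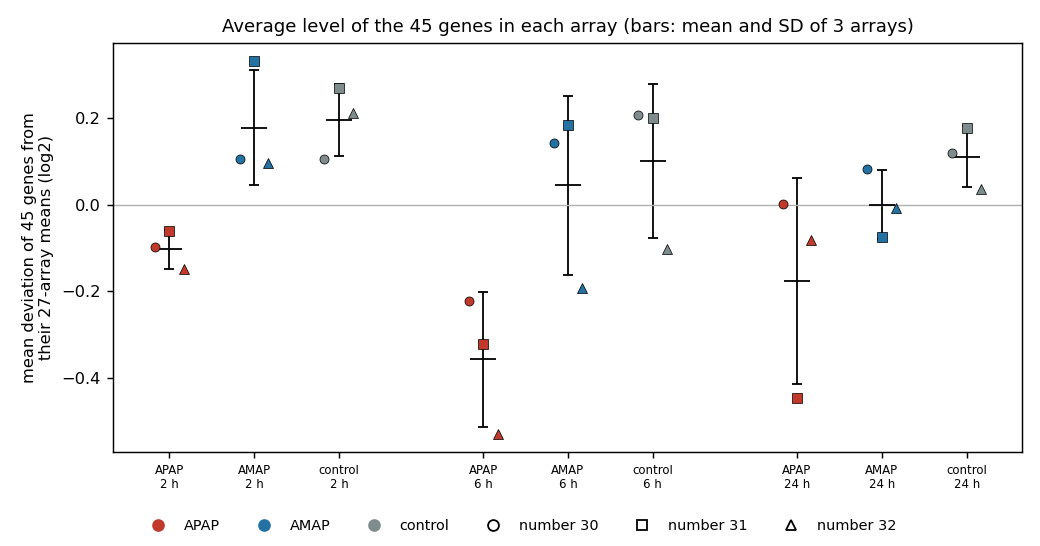
Average level of the 45 genes in each array, as the mean deviation of each gene from its 27-array mean (log2, vertical axis) for APAP (red), AMAP (blue) and control (grey) at 2, 6 and 24 h. Symbols mark the array number, and bars give the mean and SD of 3 arrays. The APAP arrays lie lowest at 2 h and 6 h, and array 32 is the lowest of each treatment at 6 h.

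Transcripts of mitotic genes were lower with APAP than with control at all 3 times, with the most genes passing the test at 6 h. The calls at 2 h and most of those at 24 h ended when single arrays were left out. The falls reached every functional group at 6 h, from the checkpoint gene Bub1b (ratio to control 0.42) and the kinetochore gene Cenpf (0.442) to the 4 cytokinesis genes. No measured gene of the set passed as higher than control at any time, and 3, 4 and 5 genes had differences above 0 at 2, 6 and 24 h. Differences are on the log2 scale, treated minus control, with the standard error of a limma model over all 27 arrays, and a gene passed at an adjusted p under 0.05 over all 19938 genes. At 2 h, 4 of 45 genes passed as lower and 0 as higher, where 0.371% of all genes were lower and 0.311% higher. At 6 h, 23 passed as lower and 0 as higher, where 1.44% of all genes were lower and 1.05% higher. At 24 h, 14 passed as lower and 0 as higher, where 5.97% were lower and 3.36% higher. Calls that held in each of 16 alternative fits were 0 of 4 at 2 h, 5 of 23 at 6 h and 2 of 14 at 24 h. The median difference of the 45 genes was -0.32 at 2 h, -0.42 at 6 h and -0.27 at 24 h, against medians of 0.01, 0.00 and 0.02 over all genes. At an unadjusted p under 0.05 there were 26, 30 and 21 of the 45 genes at 2, 6 and 24 h, and 9.26%, 12.3% and 22.3% of all genes. All 3 APAP arrays lay below all 3 control arrays for 36 of the 45 genes at 2 h (8.12% of all genes), 28 at 6 h (8.58%) and 23 at 24 h (13.7%). Of the 3 differences from control of each gene, the lowest was at 2 h for 9 genes, at 6 h for 29 and at 24 h for 7. As the set was chosen with earlier results of these data known, shares over all genes here and below are background and not tests. In bulk RNA such as this, fewer cells in mitosis and less RNA per cell cannot be told apart.

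The numbers 30, 31 and 32 were taken to pair the arrays at 2 h and 6 h, from correlations of same-numbered arrays and not from the labels. With the number as a fixed block Cenpf and Prc1 also passed at 2 h (6 calls), while a random block added Prc1 alone (5 calls). The consensus correlation within a number, estimated for the random block over all arrays and genes, was low at 0.0408. The 23 genes called at 6 h were the same with either block. In a fit of the 6 arrays compared alone, 6 genes passed at 2 h, 16 at 6 h and 8 at 24 h, and after quantile normalization 4, 22 and 9. The counts also moved with single arrays. At 2 h the 4 calls became 0 without APAP array 30 or control array 31, 1 without APAP array 31, APAP array 32 or control array 32, and 3 without control array 30. At 6 h the 23 calls became 13 when APAP array 32 or control array 31 was left out and 15 when control array 30 was. At 24 h, dropping APAP array 31 left 3 of the 14 calls in number, control array 31 left 4 and control array 30 left 8. The mean difference over the 45 genes within a number was -0.21, -0.33 and -0.36 at 2 h for numbers 30, 31 and 32, -0.43, -0.52 and -0.43 at 6 h, and -0.12, -0.62 and -0.12 at 24 h. Each of the 9 was negative, and the value for number 31 at 24 h was the lowest. Some calls that no single array ended were lost when a whole number was left out. At 6 h these were Nuf2 and Espl1 without number 30, 31 or 32 (adjusted p up to 0.124 and 0.138) and Anln without 30 or 32 (up to 0.0647). Cdc20, Cenpa, Ect2, Prc1 and Ube2c were lost at 6 h without number 30 (adjusted p between 0.0508 and 0.108). At 24 h Cenpf was lost without number 31 (adjusted p 0.187).

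**Figure D2:**
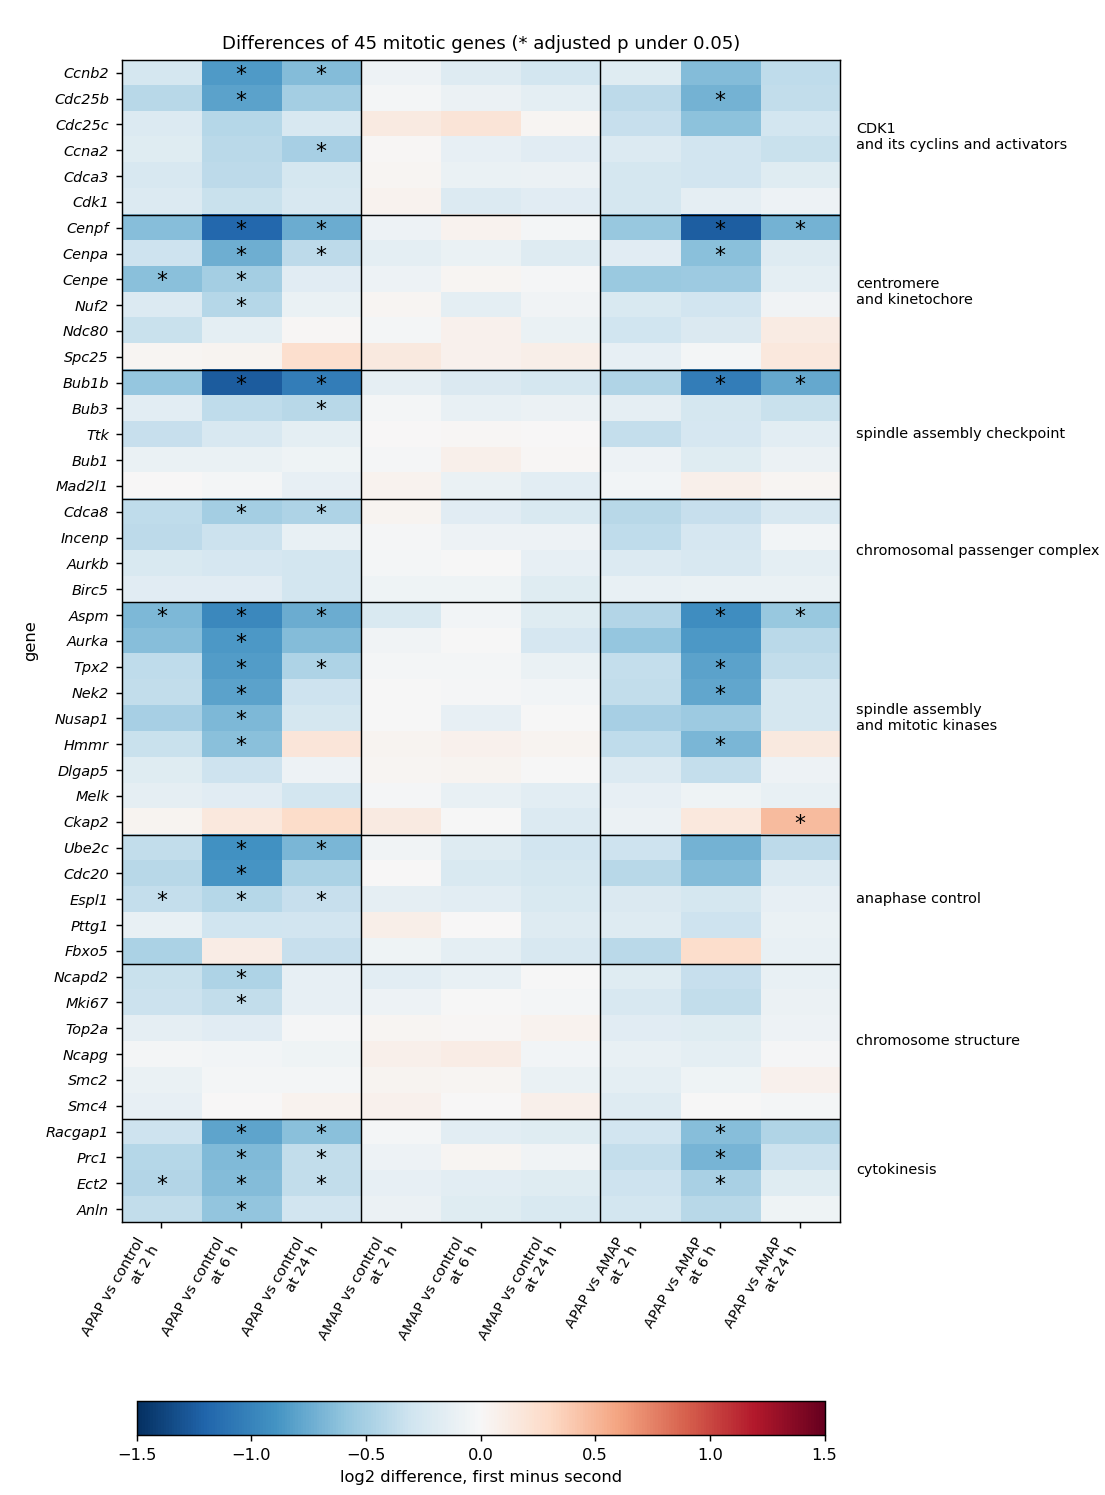
Log2 differences (colour scale) of the 45 measured genes, in rows by functional group, for APAP against control, AMAP against control and APAP against AMAP at 2, 6 and 24 h. Stars mark an adjusted p under 0.05, and the blue columns with most stars are APAP against control at 6 h (23 stars) and 24 h (14 stars).

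Promoters of mitotic genes are known for a CCAAT box, bound by the factor NF-Y, and for the cell cycle genes homology region, an element near the start site that repressor and activator complexes of the DREAM and MuvB family bind. Windows from 250 bases before to 50 bases after the RefSeq start (build GRCm38.p6) were given for 39 of the 46 genes, in 42 windows, and the letters of these elements were searched on both strands. TTTGAA or TTCGAA, taken as the homology region, stood in 33 of 42 windows (78.6%) and in 19.2% of all 32851 windows. CCAAT stood in 34 (81.0%) and in 37.4% of all windows, and both elements in 31 (73.8%) and in 7.5%. The E2F letters TTTGGCGC, TTTCCCGC, TTTGCCGC or TTTCGCGC stood in 3 windows (7.1%) and in 2.3% of all. Within 50 bases of the start, a range chosen after positions were seen, the homology region stood in 29 windows (69.0%) and in 5.3% of all. Among 117 matches in the first windows of the genes, 2 pairs overlapped, in Cdca8 and in Ube2c. The homology region stood in 20 of 24 windows of genes that were lower with APAP at 6 h and in 13 of 17 windows of the other measured genes. A match is a description of letters and not a bound site.

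Promoter sequences of 9 genes follow, chosen after their values were seen. They belong to the 2 genes with the lowest differences at 6 h (Bub1b and Cenpf), the 3 that were lower at all 3 times (Aspm, Ect2 and Espl1), a cyclin gene (Ccnb2), the gene that was higher with APAP than with AMAP (Ckap2), and a pair that did not pass at any time (Mad2l1 and Top2a). Capitals mark the letters of the homology region and of the CCAAT box. On the opposite strand TTTGAA reads as TTCAAA and the CCAAT box as ATTGG, and TTCGAA reads the same on both strands. Each runs 5′ to 3′ along the strand of the gene. The windows are chr2:118597961-118598260 on the plus strand for Bub1b, chr1:189688037-189688336 on the minus strand for Cenpf, chr1:139454523-139454822 on the plus strand for Aspm, chr3:27153829-27154128 on the minus strand for Ect2, chr15:102296043-102296342 on the plus strand for Espl1, chr9:70421505-70421804 on the minus strand for Ccnb2, chr8:22185770-22186069 on the minus strand for Ckap2, chr6:66534971-66535270 on the plus strand for Mad2l1 and chr11:99024140-99024439 on the minus strand for Top2a.
Bub1b: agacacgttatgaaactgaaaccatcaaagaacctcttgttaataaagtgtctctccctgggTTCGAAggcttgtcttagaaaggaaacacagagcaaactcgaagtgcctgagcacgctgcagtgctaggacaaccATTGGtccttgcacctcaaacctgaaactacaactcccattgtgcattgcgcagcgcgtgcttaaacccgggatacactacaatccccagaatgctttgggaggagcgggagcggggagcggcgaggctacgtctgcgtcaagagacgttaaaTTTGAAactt
Cenpf: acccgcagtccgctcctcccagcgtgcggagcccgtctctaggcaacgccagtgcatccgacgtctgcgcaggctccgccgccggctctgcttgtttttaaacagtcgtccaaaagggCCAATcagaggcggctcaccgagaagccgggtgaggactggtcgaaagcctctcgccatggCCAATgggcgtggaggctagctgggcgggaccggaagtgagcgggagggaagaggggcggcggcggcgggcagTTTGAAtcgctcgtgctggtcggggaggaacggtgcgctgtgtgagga
Aspm: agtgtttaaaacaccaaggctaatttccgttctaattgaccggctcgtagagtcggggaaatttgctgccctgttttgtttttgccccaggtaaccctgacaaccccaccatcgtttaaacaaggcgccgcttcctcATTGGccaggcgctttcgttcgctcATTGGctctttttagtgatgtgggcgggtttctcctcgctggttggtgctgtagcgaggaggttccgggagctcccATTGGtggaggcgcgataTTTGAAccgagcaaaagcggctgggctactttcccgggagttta
Ect2: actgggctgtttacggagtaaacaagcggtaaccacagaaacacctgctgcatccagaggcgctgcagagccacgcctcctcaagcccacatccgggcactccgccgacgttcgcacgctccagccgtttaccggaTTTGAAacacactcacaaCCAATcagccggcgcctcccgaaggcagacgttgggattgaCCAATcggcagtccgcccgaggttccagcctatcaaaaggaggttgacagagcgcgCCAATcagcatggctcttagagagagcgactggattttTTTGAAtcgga
Espl1: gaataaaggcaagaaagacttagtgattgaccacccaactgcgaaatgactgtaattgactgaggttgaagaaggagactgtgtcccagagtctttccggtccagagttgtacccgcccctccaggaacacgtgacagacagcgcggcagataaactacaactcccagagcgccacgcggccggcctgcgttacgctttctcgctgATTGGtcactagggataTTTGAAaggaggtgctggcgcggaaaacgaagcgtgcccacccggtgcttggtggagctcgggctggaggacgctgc
Ccnb2: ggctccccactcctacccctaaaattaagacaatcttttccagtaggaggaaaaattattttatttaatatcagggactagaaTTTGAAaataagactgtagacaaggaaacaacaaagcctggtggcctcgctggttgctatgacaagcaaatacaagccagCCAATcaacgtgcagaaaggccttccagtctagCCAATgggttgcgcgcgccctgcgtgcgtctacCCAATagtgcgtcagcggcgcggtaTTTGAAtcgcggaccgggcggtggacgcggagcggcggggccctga
Ckap2: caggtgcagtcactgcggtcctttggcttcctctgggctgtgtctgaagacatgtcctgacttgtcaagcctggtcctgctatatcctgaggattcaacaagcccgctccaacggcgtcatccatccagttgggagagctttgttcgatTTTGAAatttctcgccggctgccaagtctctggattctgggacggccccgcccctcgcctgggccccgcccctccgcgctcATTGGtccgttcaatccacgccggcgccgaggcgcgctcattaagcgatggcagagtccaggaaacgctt
Mad2l1: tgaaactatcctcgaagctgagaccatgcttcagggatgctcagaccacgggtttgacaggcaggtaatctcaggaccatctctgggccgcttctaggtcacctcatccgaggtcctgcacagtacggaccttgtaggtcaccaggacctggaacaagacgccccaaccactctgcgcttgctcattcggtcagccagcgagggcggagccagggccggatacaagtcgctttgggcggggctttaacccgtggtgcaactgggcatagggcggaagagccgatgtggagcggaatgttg
Top2a: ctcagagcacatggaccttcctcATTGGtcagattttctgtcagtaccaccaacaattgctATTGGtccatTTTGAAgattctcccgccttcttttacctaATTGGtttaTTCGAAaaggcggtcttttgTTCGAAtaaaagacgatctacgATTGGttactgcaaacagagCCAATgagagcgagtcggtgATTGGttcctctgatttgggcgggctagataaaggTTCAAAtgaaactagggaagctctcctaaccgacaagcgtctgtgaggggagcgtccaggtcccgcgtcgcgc

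In 5 of these windows TTTGAA lay within 50 bases after the start, beginning at base 41 in Bub1b, 3 in Cenpf, 7 in Aspm, 40 in Ect2 and 5 in Ccnb2, counted from the start, and in Espl1 it began at base -27. In Ckap2 it began at base -101. Top2a had it at base -23 on the reverse strand and at base -179 on the forward strand, with TTCGAA at bases -140 and -120. Further upstream, TTTGAA also began at base -114 in Ect2 and -167 in Ccnb2, and TTCGAA at base -188 in Bub1b. Mad2l1 held none of the letters searched and Top2a held 10 matches, the most of the 9 windows, and neither gene passed the test at any time. As the 9 windows were picked, they cannot show whether the letters relate to the calls.

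**Figure D3:**
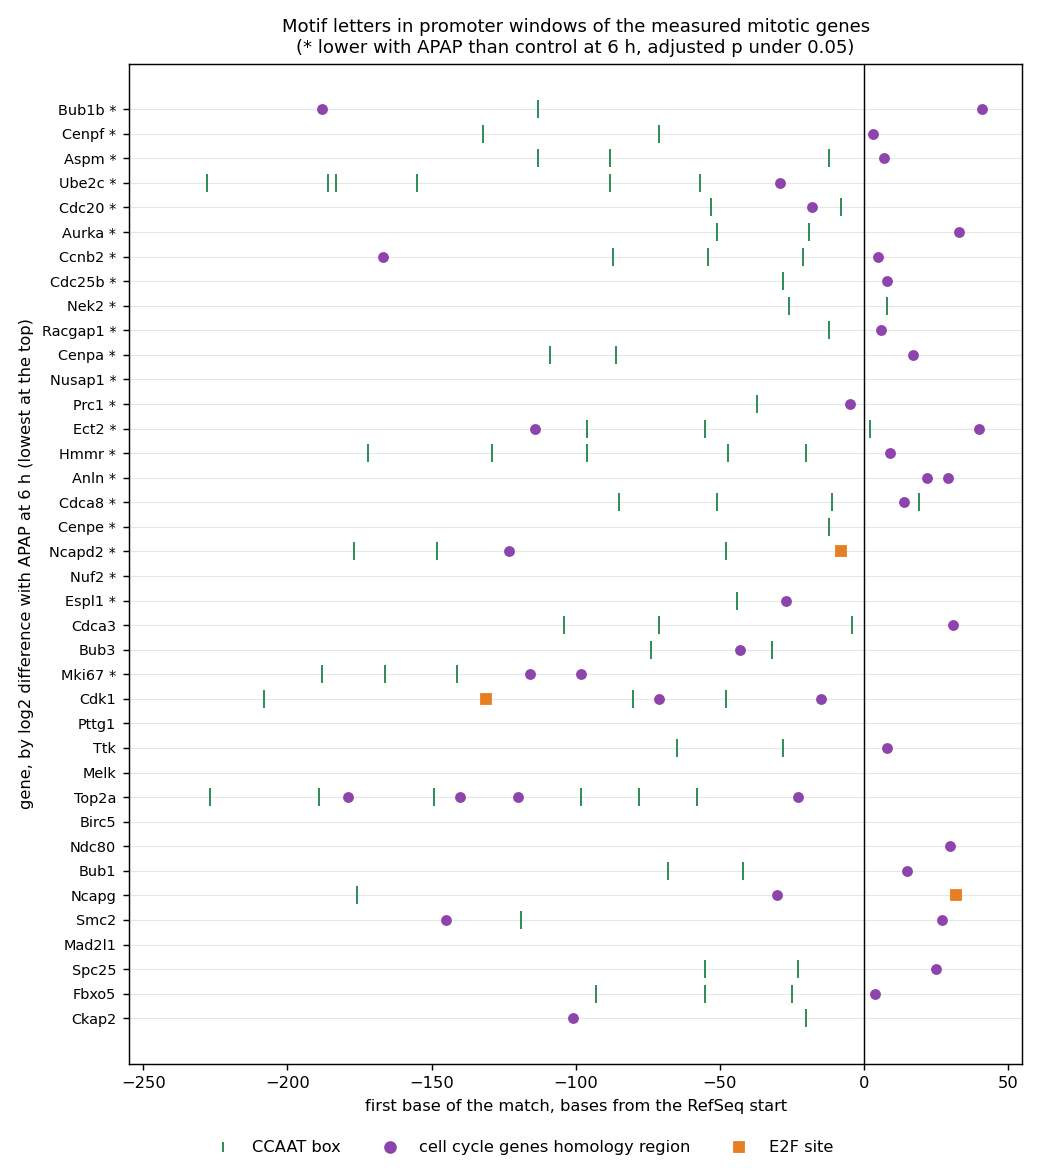
Positions of the searched letters in the first RefSeq window of each of 38 measured genes with a window (vertical axis, sorted by the difference of APAP against control at 6 h, lowest at the top), in bases from the start (horizontal axis). Purple points (homology region) cluster near the start in starred genes, which were lower with APAP at 6 h, and in unstarred ones.

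CDK1 is the kinase that drives entry into mitosis, with cyclins A2 and B2 as partners and the CDC25 phosphatases as activators. Of the 6 measured genes of this group, 0 passed at 2 h in limma (1 with an unadjusted p under 0.05, against 9.26% of all genes). At 6 h 2 were lower (Ccnb2 and Cdc25b) and at 24 h 2 (Ccnb2 and Ccna2). The shares of all genes lower at 2, 6 and 24 h were 0.371%, 1.44% and 5.97%. At 6 h Ccnb2, the cyclin B2 gene, read 10.46, 10.45 and 9.95 in APAP cultures, 11.09, 11.19 and 10.52 in AMAP cultures and 11.28, 11.35 and 10.76 in control cultures. The APAP arrays were the lowest, with the 6 other arrays all above them. Ccnb2 fell to a ratio of 0.557 to control (-0.84 ± 0.17, adjusted p = 0.00617). At 24 h it read 10.67, 10.09 and 10.52 in APAP cultures, 10.99, 10.63 and 10.78 in AMAP cultures and 11.10, 11.09 and 11.03 in control cultures. APAP values stayed below control values and overlapped the AMAP values, and the difference from control was -0.65 ± 0.17, adjusted p = 0.0161. Cdc25b, a phosphatase that starts CDK1 activation, read 7.92, 7.86 and 7.34 in APAP cultures, 8.60, 8.72 and 7.92 in AMAP cultures and 8.65, 8.63 and 8.23 in control cultures at 6 h. The APAP values lay below control without overlap, and APAP array 30 and AMAP array 32 were equal to the 2 decimals given. Cdc25b fell by 0.80 on the log2 scale (SE 0.17, adjusted p = 0.00854). Ccna2, the cyclin A2 gene, read 10.87, 10.26 and 10.80 in APAP cultures, against 11.15, 11.24 and 11.03 in control cultures at 24 h. The groups did not overlap, with APAP array 31 far below the other APAP arrays, and the difference was -0.49 ± 0.14, adjusted p = 0.0242.

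Calls of this group depended on single arrays or on the fit in part. Ccnb2 no longer passed at 6 h without APAP array 32 or control array 31 (adjusted p between 0.0522 and 0.0559), nor at 24 h without APAP array 31, control array 30 or control array 31 (adjusted p between 0.0528 and 0.13). Cdc25b no longer passed at 6 h without APAP array 32, control array 30 or control array 31 (adjusted p between 0.0549 and 0.0806), and Ccna2 no longer passed at 24 h without APAP array 31, control array 30 or control array 31 (adjusted p between 0.0681 and 0.215), in a fit of the arrays compared alone (adjusted p 0.0834) or after quantile normalization (adjusted p 0.0587). The other 3 genes did not pass at any time. Cdk1 itself had differences of -0.20, -0.33 and -0.24 at 2, 6 and 24 h, with an adjusted p of 0.212 at 6 h. Cdc25c, another CDC25 phosphatase, had -0.21, -0.42 and -0.24, and Cdca3, known in Xenopus as a factor that promotes loss of the CDK1 inhibitor WEE1, had -0.24, -0.39 and -0.27.

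Among the 6 centromere and kinetochore genes, 1 was lower at 2 h (Cenpe), 4 at 6 h (Cenpf, Cenpa, Nuf2 and Cenpe) and 2 at 24 h (Cenpf and Cenpa). Of all genes, 0.371%, 1.44% and 5.97% were lower at these times. Cenpf, a large protein of the outer kinetochore that accumulates in G2, read 9.01, 9.06 and 9.08 in APAP cultures, against 9.54, 9.80 and 9.72 in control cultures at 2 h, where its difference of -0.64 ± 0.17 did not pass (adjusted p = 0.0836). At 6 h it read 8.35, 8.36 and 7.97 in APAP cultures, 9.72, 9.64 and 9.04 in AMAP cultures and 9.61, 9.54 and 9.07 in control cultures. All APAP values were far below the others, and the AMAP and control values interleaved. Cenpf fell to a ratio of 0.442 to control (-1.18 ± 0.17, adjusted p = 1.49e-04), and 24 h values were 9.15, 8.56 and 8.86 in APAP cultures, 9.63, 9.70 and 9.39 in AMAP cultures and 9.71, 9.68 and 9.43 in control cultures. The APAP arrays were again the lowest 3 of 9, with a difference of -0.75 ± 0.17, adjusted p = 0.00499. Cenpe, the kinesin that moves chromosomes to the spindle equator, read 8.68, 8.85 and 8.82 in APAP cultures, 9.27, 9.64 and 9.11 in AMAP cultures and 9.28, 9.59 and 9.39 in control cultures at 2 h. No APAP value reached the AMAP or control values. Cenpe fell at 2 h (-0.63 ± 0.13, adjusted p = 0.0156) and at 6 h (-0.51 ± 0.13, adjusted p = 0.0362), and had a difference of -0.17 at 24 h.

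Cenpa encodes the histone H3 variant that marks centromeres. It read 9.63, 9.63 and 9.35 in APAP cultures, 10.26, 10.32 and 9.92 in AMAP cultures and 10.40, 10.40 and 10.00 in control cultures at 6 h and 10.01, 9.72 and 10.08 in APAP cultures, against 10.33, 10.28 and 10.37 in control cultures at 24 h. APAP values lay below control at both times without overlap. Cenpa fell at 6 h (-0.73 ± 0.12, adjusted p = 0.000732) and at 24 h (-0.39 ± 0.12, adjusted p = 0.0391). Nuf2, Ndc80 and Spc25 belong to the NDC80 complex that grips microtubule ends. Nuf2 fell at 6 h (-0.43 ± 0.09, adjusted p = 0.00681), whereas Ndc80 had a difference of -0.15 ± 0.12 and Spc25 of 0.04 ± 0.14, neither of which passed. At 2 and 24 h the differences were -0.21 and -0.10 for Nuf2, -0.34 and 0.02 for Ndc80, and 0.03 and 0.26 for Spc25. Cenpe no longer passed at 2 h without APAP array 30, control array 31 or control array 32 (adjusted p between 0.057 and 0.109), nor at 6 h without APAP array 30, APAP array 31, APAP array 32, control array 30 or control array 31 (adjusted p between 0.0534 and 0.187) or in a fit of the arrays compared alone (adjusted p 0.066). Cenpa no longer passed at 24 h without APAP array 30, APAP array 31, control array 30, control array 31 or control array 32 (adjusted p between 0.0563 and 0.228), in a fit of the arrays compared alone (adjusted p 0.0566) or after quantile normalization (adjusted p 0.0732).

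The spindle assembly checkpoint genes split. Lower genes numbered 0, 1 and 2 of 5 at 2, 6 and 24 h, where 0.371%, 1.44% and 5.97% of all genes were lower. Bub1b, which encodes the BUBR1 protein of the mitotic checkpoint complex, had the lowest difference of all 45 genes at 6 h and at 24 h, while 3 of the 5 checkpoint genes did not pass at any time. Bub1b read 9.02, 9.06 and 9.03 in APAP cultures, 9.36, 9.71 and 9.41 in AMAP cultures and 9.55, 9.69 and 9.63 in control cultures at 2 h. The 3 APAP values were nearly equal and below all others, with a difference from control of -0.58 ± 0.18 that did not pass (adjusted p = 0.171). Bub1b read 8.47, 8.40 and 8.07 in APAP cultures, 9.58, 9.69 and 8.76 in AMAP cultures and 9.65, 9.77 and 9.29 in control cultures at 6 h. The APAP arrays lay well below the control arrays, while AMAP array 32 fell between the APAP arrays and the other AMAP arrays. Its ratio to control was 0.42 (-1.25 ± 0.18, adjusted p = 1.55e-04). At 24 h Bub1b read 8.80, 8.09 and 8.45 in APAP cultures, 9.29, 9.11 and 9.25 in AMAP cultures and 9.52, 9.60 and 9.33 in control cultures. Here the 3 treatments did not overlap, in the order APAP, AMAP, control. The ratio of APAP to control was 0.486 (-1.04 ± 0.18, adjusted p = 4.66e-04). Bub3, whose protein brings the checkpoint kinases to kinetochores, read 10.59, 10.12 and 10.70 in APAP cultures, 10.90, 10.58 and 10.94 in AMAP cultures and 10.84, 10.95 and 10.87 in control cultures at 24 h. The APAP values lay below control without overlap, APAP array 31 lowest, and overlapped the AMAP values. Bub3 fell at 24 h (-0.42 ± 0.12, adjusted p = 0.0266), a call that ended without APAP array 31, control array 30, control array 31 or control array 32 (adjusted p between 0.0548 and 0.238), in a fit of the arrays compared alone (adjusted p 0.109) or after quantile normalization (adjusted p 0.0585).

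Differences at 2, 6 and 24 h were -0.35, -0.23 and -0.15 for Ttk, the MPS1 kinase gene that starts checkpoint signalling, with an adjusted p of 0.323 at 2 h. Bub1, the kinase that recruits other checkpoint proteins, had -0.10, -0.10 and -0.06. Mad2l1, which encodes the MAD2 inhibitor of CDC20, had 0.01, -0.03 and -0.12. The 95% interval for Mad2l1 at 6 h ran from -0.24 to 0.18, and that for Bub1 from -0.30 to 0.09.

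The chromosomal passenger complex corrects faulty attachments of kinetochores. Of its 4 genes, Cdca8, which encodes the subunit Borealin, was lower at 6 h and 24 h, and 3 did not pass at any time. Shares of all genes that were lower were 1.44% at 6 h and 5.97% at 24 h. Cdca8 read 8.64, 8.42 and 8.27 in APAP cultures, against 9.11, 9.03 and 8.72 in control cultures at 6 h and 8.64, 8.07 and 8.63 in APAP cultures, against 8.98, 8.94 and 8.84 in control cultures at 24 h. The groups did not overlap at either time, with APAP array 30 close to control array 32 at 6 h. The differences were -0.51 ± 0.14, adjusted p = 0.0449 at 6 h and -0.47 ± 0.14, adjusted p = 0.0319 at 24 h. Both calls depended on single arrays and on the fit, as Cdca8 no longer passed at 6 h without APAP array 31, APAP array 32, control array 30 or control array 31 (adjusted p between 0.141 and 0.207) or in a fit of the arrays compared alone (adjusted p 0.0788), nor at 24 h without APAP array 31, control array 30, control array 31 or control array 32 (adjusted p between 0.0548 and 0.259) or in a fit of the arrays compared alone (adjusted p 0.0893). Incenp, the scaffold of the complex, had differences of -0.40, -0.33 and -0.12 at 2, 6 and 24 h, with an adjusted p of 0.107 at 2 h. Aurkb, its kinase, had -0.22, -0.25 and -0.27, and Birc5, which encodes Survivin, had -0.17, -0.17 and -0.27.

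Of the 9 spindle and mitotic kinase genes, 1 was lower at 2 h (Aspm), 6 at 6 h (Aspm, Tpx2, Nek2, Nusap1, Hmmr and Aurka) and 2 at 24 h (Aspm and Tpx2). Among all genes, 0.371%, 1.44% and 5.97% were lower at these times. Aspm encodes a protein of the spindle poles and was lower at all 3 times. At 2 h it read 8.73, 8.69 and 8.72 in APAP cultures, 9.02, 9.48 and 8.97 in AMAP cultures and 9.28, 9.55 and 9.32 in control cultures. The APAP values were close together and below all others. Aspm fell at 2 h (-0.67 ± 0.14, adjusted p = 0.0147), and at 6 h it read 8.45, 8.40 and 8.14 in APAP cultures, 9.48, 9.34 and 8.96 in AMAP cultures and 9.42, 9.32 and 9.15 in control cultures. Again no APAP value reached the others, and the ratio to control was 0.512 (-0.97 ± 0.14, adjusted p = 1.78e-04). At 24 h Aspm read 9.00, 8.62 and 8.59 in APAP cultures, 9.19, 9.52 and 9.19 in AMAP cultures and 9.54, 9.55 and 9.37 in control cultures. APAP array 30 was the highest APAP array and still below the AMAP and control arrays, and the difference was -0.75 ± 0.14, adjusted p = 0.00115. The call at 2 h ended without APAP array 30, APAP array 31, APAP array 32 or control array 31 (adjusted p between 0.0511 and 0.0967), whereas the calls of Aspm at 6 h and 24 h held in each of 16 alternative fits.

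Tpx2 encodes the activator of Aurora A that also seeds spindle microtubules. At 6 h Tpx2 read 9.61, 9.68 and 9.39 in APAP cultures, 10.47, 10.54 and 10.09 in AMAP cultures and 10.47, 10.56 and 10.14 in control cultures, and at 24 h 9.99, 9.55 and 9.98 in APAP cultures, 10.20, 10.23 and 10.19 in AMAP cultures and 10.28, 10.42 and 10.21 in control cultures. APAP values were the lowest 3 of 9 at both times, with a wider gap at 6 h. The differences were -0.83 ± 0.12, adjusted p = 2.53e-04 at 6 h and -0.47 ± 0.12, adjusted p = 0.0171 at 24 h, and the call at 24 h ended without APAP array 31 or control array 31 (adjusted p between 0.0928 and 0.149) or in a fit of the arrays compared alone (adjusted p 0.0598). Aurka, the Aurora A kinase gene, fell by 0.86 at 6 h (log2, SE 0.21, adjusted p = 0.025) and had differences of -0.64 and -0.65 at 2 and 24 h. Nek2, a kinase that separates centrosomes, had -0.80 ± 0.17 at 6 h (adjusted p = 0.0088), and Nusap1, a bundler of spindle microtubules, had -0.67 ± 0.16 (adjusted p = 0.0183). Hmmr, the hyaluronan-mediated motility receptor that also sits on spindles, fell at 6 h (-0.62 ± 0.15, adjusted p = 0.0234) and had a difference of 0.19 at 24 h, where its APAP values of 9.93, 9.75 and 10.02 overlapped control values of 9.78, 9.89 and 9.48. Aurka no longer passed at 6 h without APAP array 32, control array 30 or control array 31 (adjusted p between 0.114 and 0.17) or in a fit of the arrays compared alone (adjusted p 0.0686), and Nek2 no longer passed without APAP array 32 or control array 31 (adjusted p between 0.0671 and 0.0767). Nusap1 lost its call without APAP array 31, APAP array 32, control array 30 or control array 31 (adjusted p between 0.0722 and 0.123) or in a fit of the arrays compared alone (adjusted p 0.087), and Hmmr without APAP array 32, control array 30 or control array 31 (adjusted p between 0.121 and 0.142) or in a fit of the arrays compared alone (adjusted p 0.0723).

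Dlgap5, which encodes the HURP protein that stabilises microtubules near chromosomes, had differences of -0.18, -0.31 and -0.08 at 2, 6 and 24 h, and Melk, a kinase of dividing cells, had -0.14, -0.17 and -0.28. Neither passed. Ckap2, a microtubule protein of the spindle, went the other way in sign, with 0.04, 0.16 and 0.27 ± 0.12, and did not pass against control (adjusted p = 0.18 at 24 h).

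The 5 genes of anaphase control comprise 2 partners of the anaphase promoting complex (Cdc20 and Ube2c), its inhibitor Fbxo5, separase (Espl1) and the separase inhibitor securin (Pttg1). Espl1 was lower at all 3 times, Ube2c at 6 h and 24 h and Cdc20 at 6 h, where 0.371%, 1.44% and 5.97% of all genes were lower at 2, 6 and 24 h. Espl1 read 8.43, 8.32 and 8.31 in APAP cultures, 8.44, 8.78 and 8.49 in AMAP cultures and 8.66, 8.78 and 8.69 in control cultures at 2 h. APAP array 30 lay just under AMAP array 30, and all APAP arrays were below all control arrays. Espl1 fell by 0.36 (log2, SE 0.09, adjusted p = 0.0483) at 2 h and by 0.42 (SE 0.09, adjusted p = 0.00638) at 6 h. At 24 h it read 8.60, 8.25 and 8.51 in APAP cultures, 8.53, 8.62 and 8.58 in AMAP cultures and 8.74, 8.87 and 8.80 in control cultures. Both isomers lay below control without overlap and overlapped each other, and the difference of APAP from control was -0.35 ± 0.09, adjusted p = 0.0106. The call at 2 h ended without any 1 of the 6 arrays (adjusted p between 0.0668 and 0.231) or in a fit of the arrays compared alone (adjusted p 0.0875), and that at 24 h without APAP array 31 or control array 31 (adjusted p between 0.0581 and 0.103) or in a fit of the arrays compared alone (adjusted p 0.0803).

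Cdc20, the activator of the anaphase promoting complex that the checkpoint restrains, read 8.56, 8.57 and 8.29 in APAP cultures, 9.21, 9.48 and 8.70 in AMAP cultures and 9.39, 9.56 and 9.12 in control cultures at 6 h. The APAP values lay below all others, with AMAP array 32 the nearest. Cdc20 fell to a ratio of 0.543 to control (-0.88 ± 0.17, adjusted p = 0.00323) and had -0.47 ± 0.17 at 24 h (adjusted p = 0.074). Ube2c, the ubiquitin-conjugating enzyme of that complex, read 8.63, 8.53 and 7.93 in APAP cultures, 9.11, 9.35 and 8.74 in AMAP cultures and 9.40, 9.39 and 9.00 in control cultures at 6 h and 8.81, 8.26 and 8.77 in APAP cultures, 9.18, 8.85 and 8.99 in AMAP cultures and 9.27, 9.33 and 9.29 in control cultures at 24 h. APAP was below AMAP and control at both times without overlap. The differences of Ube2c were -0.90 ± 0.17, adjusted p = 0.00418 at 6 h and -0.68 ± 0.17, adjusted p = 0.0134 at 24 h, and the call at 24 h ended without APAP array 31 or control array 31 (adjusted p between 0.0509 and 0.114). Fbxo5, which encodes the inhibitor EMI1, had differences of -0.47, 0.11 and -0.35 at 2, 6 and 24 h, so that its sign at 6 h was opposite to that of most of the set, and none passed (adjusted p = 0.173 at 2 h). Pttg1 had -0.11, -0.30 and -0.29, none of which passed.

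Genes of chromosome structure had a median difference of -0.10 at 6 h over the 6 genes. At 6 h 2 of them were lower (1.44% of all genes), Ncapd2, a condensin I subunit, and Mki67, the proliferation marker Ki-67 that coats mitotic chromosomes. None passed at 2 h or 24 h, with 2 and 0 under an unadjusted p of 0.05 in limma (9.26% and 22.3% of all genes). Ncapd2 read 9.15, 9.05 and 8.81 in APAP cultures, against 9.52, 9.52 and 9.35 in control cultures at 6 h and Mki67 read 11.10, 10.87 and 10.77 in APAP cultures, against 11.39, 11.24 and 11.22 in control cultures. In both genes the APAP values lay below control without overlap. The differences were -0.47 ± 0.12, adjusted p = 0.0305 for Ncapd2 and -0.37 ± 0.10, adjusted p = 0.0306 for Mki67. Ncapd2 no longer passed without APAP array 31, APAP array 32, control array 30 or control array 31 (adjusted p between 0.0731 and 0.173) or in a fit of the arrays compared alone (adjusted p 0.0627), and Mki67 no longer passed without APAP array 31, APAP array 32, control array 30, control array 31 or control array 32 (adjusted p between 0.0519 and 0.165), in a fit of the arrays compared alone (adjusted p 0.131) or after quantile normalization (adjusted p 0.0533).

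The condensin genes Ncapg, Smc2 and Smc4 and the topoisomerase gene Top2a, which untangles sister DNA, did not pass at any time. Differences at 2, 6 and 24 h were -0.03, -0.04 and -0.06 for Ncapg, -0.10, -0.03 and -0.03 for Smc2, -0.12, 0.00 and 0.05 for Smc4, and -0.14, -0.17 and -0.02 for Top2a. At 6 h Top2a read 11.32, 11.21 and 11.14 in APAP cultures, against 11.49, 11.35 and 11.35 in control cultures. The APAP values were below control by a small margin, and the 95% interval of the difference ran from -0.35 to 0.01. Another, dimmer Top2a probe set, which was not kept, averaged 6.52 with APAP and 6.85 with control at 2 h. Its averages were 6.60 and 6.58 at 6 h, and 6.62 and 6.83 at 24 h.

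All 4 cytokinesis genes were lower at 6 h, 3 of them also at 24 h (Racgap1, Ect2 and Prc1) and 1 also at 2 h (Ect2). Lower genes made up 0.371%, 1.44% and 5.97% of all genes at 2, 6 and 24 h. Ect2, the exchange factor that switches on RhoA at the division plane, read 10.50, 10.46 and 10.47 in APAP cultures, 10.79, 10.85 and 10.74 in AMAP cultures and 10.84, 10.98 and 10.92 in control cultures at 2 h. The 3 APAP values were close together and below all AMAP and control values. Ect2 read 10.45, 10.37 and 10.26 in APAP cultures, 10.90, 11.06 and 10.59 in AMAP cultures and 11.05, 11.16 and 10.82 in control cultures at 6 h and 10.72, 10.36 and 10.63 in APAP cultures, 10.79, 10.73 and 10.74 in AMAP cultures and 10.88, 11.09 and 10.83 in control cultures at 24 h. APAP stayed lowest at both times, with APAP array 30 just under AMAP array 31 at 24 h. The differences from control were -0.43 ± 0.10, adjusted p = 0.0486 at 2 h, -0.65 ± 0.10, adjusted p = 0.000591 at 6 h and -0.37 ± 0.10, adjusted p = 0.0258 at 24 h. The call at 2 h ended without any 1 of the 6 arrays (adjusted p between 0.0804 and 0.204), and that at 24 h without APAP array 31 or control array 31 (adjusted p between 0.152 and 0.182), in a fit of the arrays compared alone (adjusted p 0.0898) or after quantile normalization (adjusted p 0.0581).

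Prc1, which crosslinks the microtubules of the spindle midzone, read 9.95, 9.91 and 9.81 in APAP cultures, 10.70, 10.66 and 10.41 in AMAP cultures and 10.59, 10.67 and 10.42 in control cultures at 6 h. APAP lay well below the other groups, whose values interleaved. Prc1 fell at 6 h (-0.67 ± 0.11, adjusted p = 0.000618) and at 24 h (-0.37 ± 0.11, adjusted p = 0.0278), the last a call that ended without APAP array 31, control array 30 or control array 31 (adjusted p between 0.0588 and 0.193), in a fit of the arrays compared alone (adjusted p 0.0834) or after quantile normalization (adjusted p 0.0534). Racgap1, a subunit of the centralspindlin complex that recruits Ect2, read 10.53, 9.89 and 10.37 in APAP cultures, 10.92, 10.55 and 10.67 in AMAP cultures and 10.91, 10.99 and 10.78 in control cultures at 24 h. All APAP values were below the others, APAP array 31 lowest. The differences of Racgap1 were -0.79 ± 0.14, adjusted p = 0.0017 at 6 h and -0.63 ± 0.14, adjusted p = 0.00459 at 24 h, and the call at 24 h ended without APAP array 31 (adjusted p 0.0523). Anln, the anillin scaffold of the contractile ring, had -0.60 ± 0.11, adjusted p = 0.0018 at 6 h and did not pass at 2 h (-0.37) or 24 h (-0.29).

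**Figure D4:**
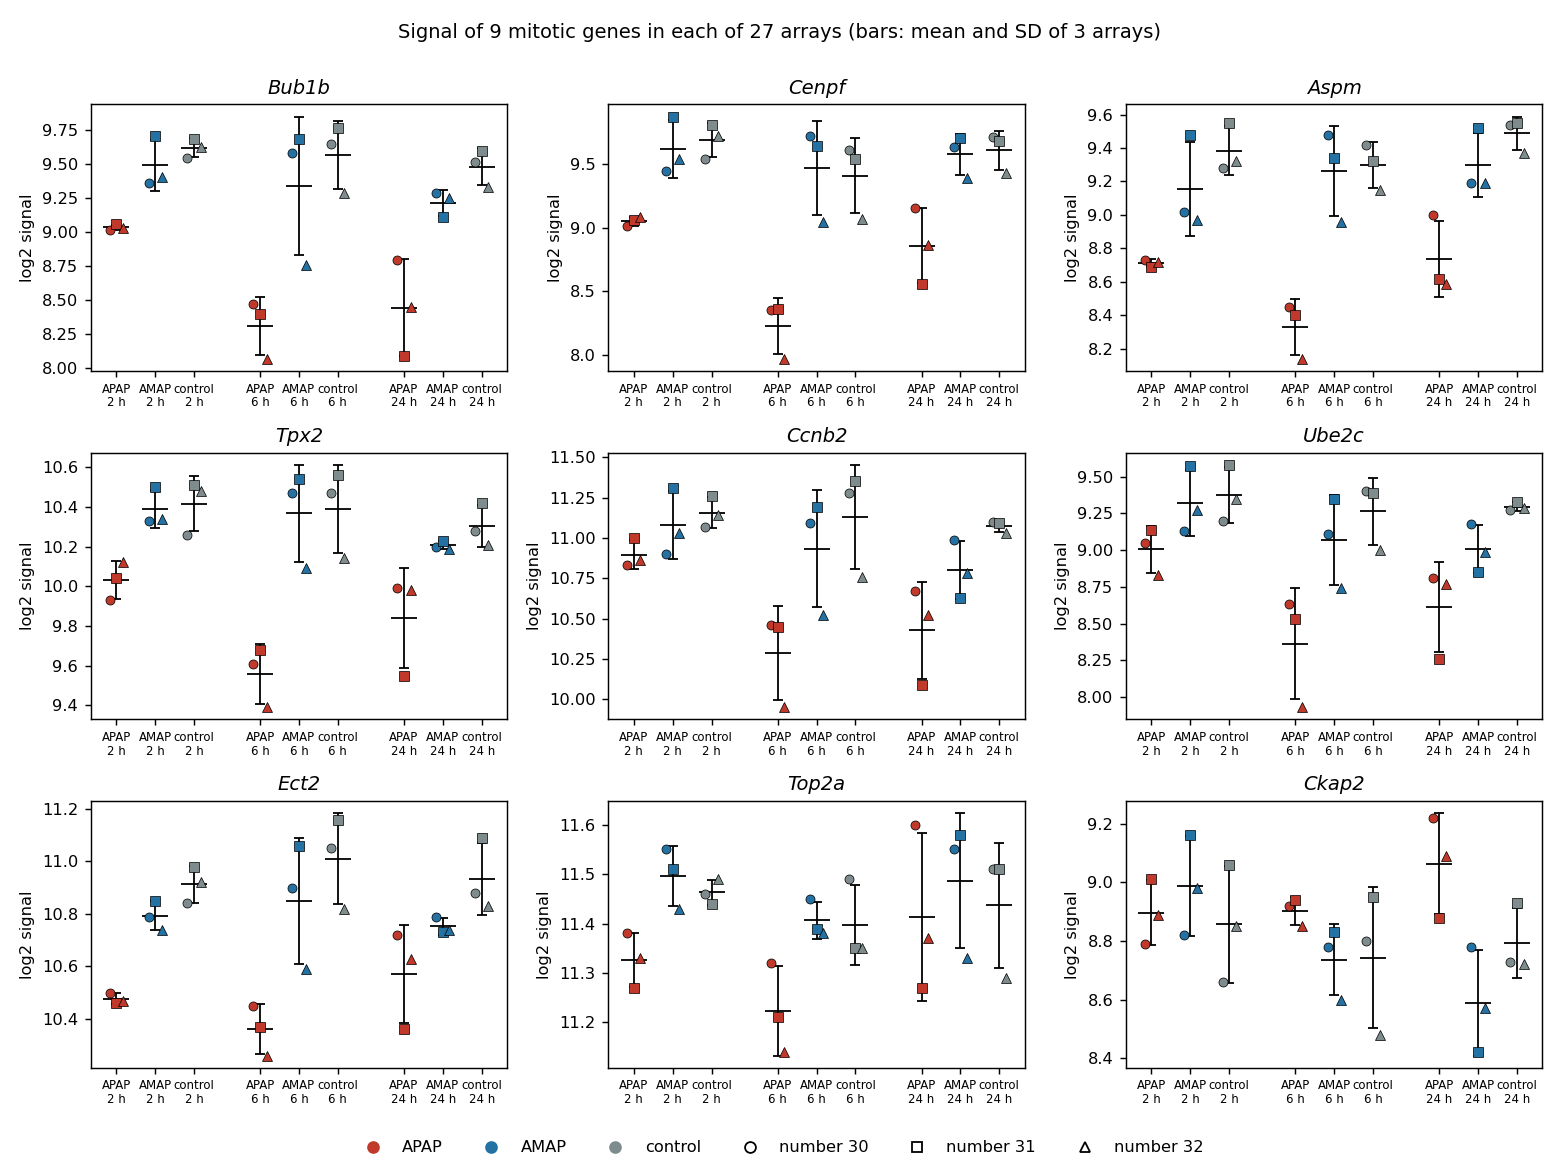
Log2 signal (vertical axes, 1 panel per gene, each on its own scale) of 9 genes in each of 27 arrays, for APAP (red), AMAP (blue) and control (grey) at 2, 6 and 24 h. Symbols mark the array number, and bars give the mean and SD of 3 arrays. APAP values of Bub1b, Cenpf, Aspm and Ect2 lie below control at all 3 times, Top2a moves little, and Ckap2 is highest with APAP at 24 h.

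With AMAP, the same cells showed no gene of the set past the test at any time. At 2, 6 and 24 h, 0, 0 and 0 of 45 genes were called in either direction by limma, where 0.181%, 0.456% and 0.727% of all genes were. At an unadjusted p under 0.05 the counts were 0 at 2 h (6.8% of all genes), 0 at 6 h (9.47%) and 2 at 24 h (11.2%). The median differences from control were -0.02, -0.06 and -0.10, against -0.02, 0.01 and -0.01 over all genes. Differences below 0 were found for 27, 30 and 38 of the 45 genes at 2, 6 and 24 h. Over all 19938 genes there were 11873, 9553 and 10668. All AMAP arrays lay below all control arrays for 1 gene at 2 h (6.95% of all genes), 4 at 6 h (5.87%) and 16 at 24 h (10.7%). The 2 genes under 0.05 unadjusted at 24 h, named after their values were seen, were Espl1 (-0.23 ± 0.09, adjusted p = 0.272) and Anln (-0.23 ± 0.11, adjusted p = 0.427). APAP and AMAP were compared with the same control arrays, so their differences from control are not independent.

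A missed threshold does not show that AMAP left these genes as they were, and the intervals give what the arrays allow. At 6 h the 95% interval of AMAP minus control ran from -0.59 to 0.15 for Bub1b, from -0.29 to 0.40 for Cenpf and from -0.32 to 0.25 for Aspm, genes chosen for their APAP differences. These intervals stopped short of the APAP differences of -1.25, -1.18 and -0.97 at the same time. With genes so chosen and APAP differences that have errors of their own, this is not a test between the isomers. At 24 h the interval for Bub1b ran from -0.64 to 0.10, around a difference of -0.27.

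Set directly against AMAP at the same dose and time, 11 of the mitotic genes were lower with APAP at 6 h and 3 at 24 h. At 2 h all 45 differences were negative with a median of -0.27 (0.03 over all genes), but 0 genes passed, where 0.261% of all genes did. In 32 of them all APAP arrays lay below all AMAP arrays (4.7% of all genes), and 24 had an unadjusted p under 0.05 in limma (9.33% of all genes). At 6 h 11 genes were lower and 0 higher with APAP than with AMAP, where 0.231% of all genes were lower and 0.476% higher. These were Cenpf, Aspm, Tpx2, Prc1, Bub1b, Cenpa, Ect2, Racgap1, Nek2, Hmmr and Cdc25b. The arrays did not overlap for 26 genes that were below (5.34% of all genes) and 2 that were above (5.09%), and the median difference was -0.34, against -0.01 over all genes. At 24 h 3 genes were lower (2.78% of all genes) and 1 higher (1.87%), with a median of -0.15 against 0.02. At that time all APAP arrays lay below all AMAP arrays for 9 genes (10.1% of all genes) and above them for 1 (12.3%).

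The differences of APAP from AMAP at 6 h were -1.24 ± 0.17, adjusted p = 1.77e-04 for Cenpf, -0.93 ± 0.14, adjusted p = 0.000751 for Aspm and -0.81 ± 0.12, adjusted p = 0.000886 for Tpx2. For Bub1b the difference was -1.03 ± 0.18, adjusted p = 0.00318, and for Prc1 it was -0.70 ± 0.11, adjusted p = 0.000886. Values of these 5 genes in every array are given above, and in each the APAP arrays lay below the AMAP arrays. Cenpa had -0.63 ± 0.12, adjusted p = 0.00773, Ect2 -0.49 ± 0.10, adjusted p = 0.0211 and Cdc25b -0.71 ± 0.17, adjusted p = 0.0484. At 24 h the lower genes were Bub1b (-0.77 ± 0.18, adjusted p = 0.011), Cenpf (-0.71 ± 0.17, adjusted p = 0.0118) and Aspm (-0.56 ± 0.14, adjusted p = 0.0178). Ckap2 was the gene that was higher, with 9.22, 8.88 and 9.09 in APAP cultures, 8.78, 8.42 and 8.57 in AMAP cultures and 8.73, 8.93 and 8.72 in control cultures at 24 h. Its APAP values were above all AMAP values, and the control values overlapped both. The difference of Ckap2 between the isomers was 0.48 ± 0.12, adjusted p = 0.0216. As 1.87% of all genes were higher at 24 h, 1 higher gene among the 45 lay near the share of all genes.

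By the same correlations, the numbers 30, 31 and 32 were taken to pair the arrays of the isomers at 6 h and 24 h. With the number as a fixed block the count at 6 h was 17 in place of 11, with Anln, Aurka, Ccnb2, Cenpe, Mki67 and Ube2c added. A random block gave 16, without Ccnb2. At 24 h the fixed block gave 5 in place of 4, with Racgap1 added, and the random block gave 4. In a fit of the 6 arrays compared alone, 3 genes passed at 6 h and 2 at 24 h, and Bub1b (adjusted p = 0.152) and Tpx2 (adjusted p = 0.0517) no longer passed at 6 h. Single arrays also moved the counts, from 11 at 6 h to 5 without APAP array 32, AMAP array 30 or AMAP array 31, to 6 without APAP array 31 and to 19 without AMAP array 32. At 24 h the 4 calls became 1 without APAP array 31 and 2 without AMAP array 30 or AMAP array 31, and at 2 h the 0 calls became 1 without AMAP array 32. Cenpf at 6 h was the gene that passed in each of 16 alternative fits. Leaving out number 30 ended the calls of Aspm (adjusted p 0.0644) and Prc1 (adjusted p 0.107) at 6 h, and also those of Bub1b and Tpx2. At 24 h Bub1b no longer passed without APAP array 31 or AMAP array 30 (adjusted p between 0.0522 and 0.0744), Cenpf without APAP array 31, AMAP array 30 or AMAP array 31 (adjusted p between 0.0532 and 0.0752), Aspm without APAP array 31, APAP array 32 or AMAP array 31 (adjusted p between 0.0721 and 0.104) or in a fit of the arrays compared alone (adjusted p 0.0721) and Ckap2 without APAP array 30, APAP array 32, AMAP array 31 or AMAP array 32 (adjusted p between 0.0688 and 0.109) or in a fit of the arrays compared alone (adjusted p 0.0889). At 6 h Cdc25b no longer passed without APAP array 30, APAP array 31, APAP array 32, AMAP array 30 or AMAP array 31 (adjusted p between 0.0505 and 0.34) or in a fit of the arrays compared alone (adjusted p 0.45), Cenpa without APAP array 32, AMAP array 30 or AMAP array 31 (adjusted p between 0.064 and 0.082) or in a fit of the arrays compared alone (adjusted p 0.133) and Ect2 without APAP array 31, APAP array 32, AMAP array 30 or AMAP array 31 (adjusted p between 0.0638 and 0.183) or in a fit of the arrays compared alone (adjusted p 0.273). Racgap1 no longer passed without APAP array 31, APAP array 32, AMAP array 30 or AMAP array 31 (adjusted p between 0.101 and 0.197) or in a fit of the arrays compared alone (adjusted p 0.205), nor did Nek2 without APAP array 31, APAP array 32, AMAP array 30 or AMAP array 31 (adjusted p between 0.0565 and 0.209) or in a fit of the arrays compared alone (adjusted p 0.198) or Hmmr without APAP array 31, APAP array 32, AMAP array 30 or AMAP array 31 (adjusted p between 0.0565 and 0.252) or in a fit of the arrays compared alone (adjusted p 0.197).

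Some genes that did not pass between the isomers are given with their intervals, chosen after their values were seen. At 6 h the interval of APAP minus AMAP was -0.39 to 0.13 for Cdk1, -0.57 to 0.01 for Ccna2, -0.14 to 0.28 for Mad2l1 and -0.36 to -0.01 for Top2a. For Aurka it was -1.30 to -0.42 (adjusted p = 0.0578), and for Cenpe -0.82 to -0.27 (adjusted p = 0.0537).

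Levels in control cultures were compared between times as a background. Of the 45 genes, 0 passed at 6 h against 2 h (0.707% of all genes), 0 at 24 h against 6 h (0.015%) and 0 at 24 h against 2 h (1.14%) in limma. Unadjusted, 3, 0 and 1 genes had a p under 0.05 (9.33%, 7.69% and 14% of all genes), and the median differences were -0.10, 0.00 and -0.08. Whether the APAP effect changed with time was tested as the difference between its differences from control. No gene of the set passed at 6 h minus 2 h (0% of all genes), 24 h minus 6 h (0.01%) or 24 h minus 2 h (0.356%), with 8, 5 and 2 genes under an unadjusted p of 0.05 (3.41%, 7.14% and 9.46% of all genes). The change between times was thus not shown for any single gene, although the counts of lower genes differed.

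Lists of related genes outside the set were counted in the same comparisons, and these lists too were chosen with earlier results known. For comparison, 0.371% of all genes were lower and 0.311% higher with APAP at 2 h. The shares were 1.44% and 1.05% at 6 h, and 5.97% and 3.36% at 24 h. An unadjusted p under 0.05 in limma was held by 9.26%, 12.3% and 22.3% of all genes at 2, 6 and 24 h. Of 23 other spindle and cytokinesis genes, 4 were lower at 2 h, 14 at 6 h and 5 at 24 h, where 1 was higher. The 3 with the smallest p at 6 h were Depdc1a (-0.81 ± 0.14, adjusted p = 0.00195) and the kinesin genes Kif18a (-0.86 ± 0.16, adjusted p = 0.00255) and Kif20b (-0.45 ± 0.09, adjusted p = 0.00337). Of the kinetochore genes outside the set, 0 of 32 passed at 6 h (median 0.01), with 7 under an unadjusted p of 0.05, and the 3 with the smallest p were Knl1 (-0.30 ± 0.10), Cenpi (-0.24 ± 0.08) and Sgo1 (-0.32 ± 0.12). At 2 h 1 of these 32 was lower, and at 24 h 2 were lower and 1 higher, near the shares of all genes at 24 h. Of 15 other condensin and cohesin genes, 1 was lower (Rad21, -0.36 ± 0.08, adjusted p = 0.00854) and 1 higher (Ncapd3, 0.27 ± 0.07, adjusted p = 0.0456) at 6 h, and 3 were lower and 1 higher at 24 h. Among 15 subunits and activators of the anaphase promoting complex, 2 were lower at 6 h, Fzr1 (-0.42 ± 0.10, adjusted p = 0.0249) and Anapc2 (-0.34 ± 0.09, adjusted p = 0.0419), and 0 passed at 2 h or 24 h, with 3 and 5 under an unadjusted p of 0.05 in limma.

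Regulators of CDK1 moved in both directions. Of 18 such genes, 2 were lower and 1 higher at 2 h and at 6 h, and 5 were lower and 2 higher at 24 h. Over all genes the shares lower and higher were 0.371% and 0.311% at 2 h, 1.44% and 1.05% at 6 h, and 5.97% and 3.36% at 24 h. Plk1, the Polo-like kinase that activates CDK1, fell at 6 h (-1.24 ± 0.22, adjusted p = 0.00191), and Cdkn3, a CDK phosphatase, fell by 0.92 (SE 0.18, adjusted p = 0.00547). Gadd45a, a stress gene that can inhibit CDK1, rose at 2 h (0.80 ± 0.18, adjusted p = 0.0264), 6 h (1.14 ± 0.18, adjusted p = 4.62e-04) and 24 h (0.67 ± 0.18, adjusted p = 0.0174). Wee1, the kinase that holds CDK1 inactive, was lower at 2 h (-0.51 ± 0.11, adjusted p = 0.0164) and 24 h (-0.49 ± 0.11, adjusted p = 0.00387) and had -0.38 ± 0.11 at 6 h (adjusted p = 0.0598), and Cdc25a had 0.08 ± 0.11. None of 15 transcription regulators of mitotic genes passed at 2 h or 6 h in limma. Under an unadjusted p of 0.05 there were 2 and 3 (9.26% and 12.3% of all genes). At 24 h 2 were lower (5.97% of all genes) and 1 higher (3.36%). Foxm1, the activator of many G2 genes, had -0.44 ± 0.15 at 6 h (adjusted p = 0.159), and Mybl2, which encodes B-MYB, had 0.14 ± 0.09 at 6 h and fell at 24 h (-0.28 ± 0.09, adjusted p = 0.0402). Nfyb, a subunit of the CCAAT binding factor, had 0.51 ± 0.15 at 6 h (adjusted p = 0.0685) and rose at 24 h (0.58 ± 0.15, adjusted p = 0.0139).

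Genes of DNA replication and the G1 to S passage stood at the other sign at 6 h. Their median difference was 0.14 over 32 genes, 0 were lower and 2 were higher, the cyclin E genes Ccne1 (0.59 ± 0.12, adjusted p = 0.00632) and Ccne2 (0.63 ± 0.16, adjusted p = 0.0277). Over all genes 1.44% were lower and 1.05% higher. None passed at 2 h, where 2 were under an unadjusted p of 0.05 in limma (9.26% of all genes), and 3 were lower at 24 h (5.97%). With AMAP, 0 genes of these 7 lists passed at 2 h, 6 h or 24 h in limma (0.181%, 0.456% and 0.727% of all genes). Between 0 and 4 genes of a list had an unadjusted p under 0.05 (6.8%, 9.47% and 11.2% of all genes). The count of 4 was among the 32 other kinetochore genes at 24 h.

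**Figure D5:**
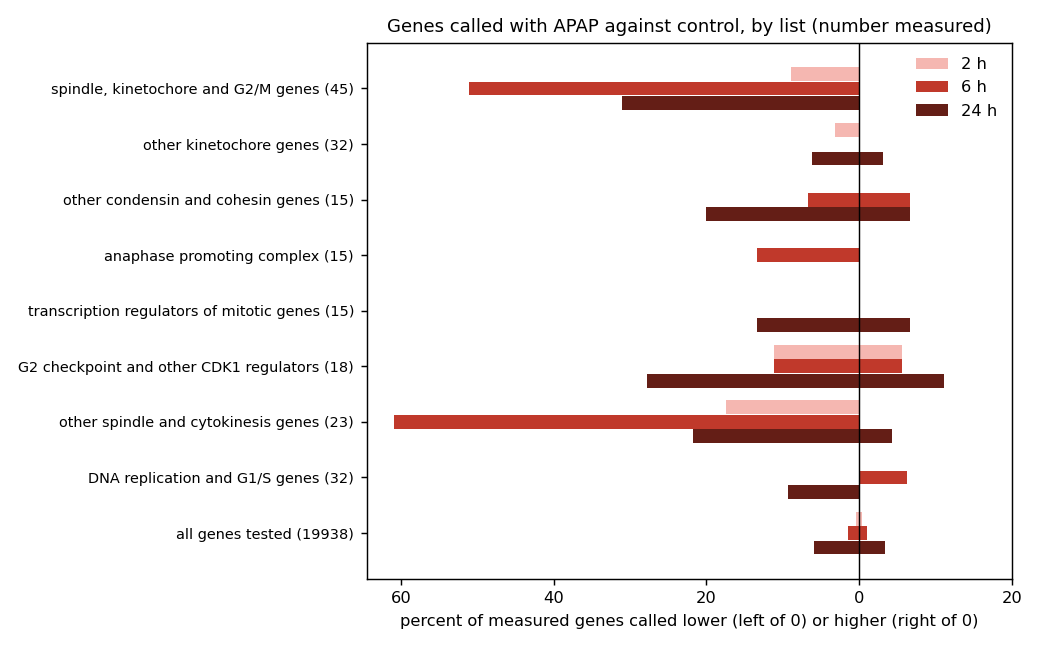
Percent of measured genes called lower (left of 0) or higher (right of 0) with APAP against control at 2, 6 and 24 h (horizontal axis), for the 45 spindle, kinetochore and G2/M genes, 7 related lists and all 19938 genes. The longest bars to the left at 6 h are those of the 45 genes (23 genes) and of the other spindle and cytokinesis genes (14 of 23).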

How the data were processed

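TAMH cells were measured on 27 Affymetrix Mouse Gene 1.0 ST arrays, 3 in each of 9 groups of treatment and time, grouped by the titles. The deposited values are log2 signals that the authors made with RMA in Expression Console 1.1, per the submitters' processing notes. No further scaling was applied. Of 35557 probe sets, those annotated to 1 symbol gave 19938 genes. A limma fit (limma 3.58.1, R 4.3.3) with 9 group means was run over all arrays and genes, and p-values were adjusted with the Benjamini-Hochberg method over all genes, with calls at an adjusted p under 0.05.

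The genes of the set, the role groups and the related lists were chosen with earlier results of these data known. Values in every array are given for up to 2 called genes with the smallest p per role group and comparison. For related lists, up to 3 genes with the smallest p in APAP against control at 6 h are named, plus Foxm1, Mybl2, Wee1, Cdc25a, Plk1 and Gadd45a. The array number comes from the titles. It was taken to pair arrays where every correlation of same-numbered deviations was above 0.1, which held for APAP against control at 2 h and 6 h, AMAP against control at 6 h, and APAP against AMAP at 6 h and 24 h. Alternatives were median centring, quantile normalization, a filter on dim genes, the mean of all probe sets of a gene, only the arrays compared, the number as a fixed or random block, and leaving out arrays or numbers.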

Additional observations from a re-analysis of the deposited data

How the results depend on the processing

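No called gene of the set changed direction under any alternative tried, and the cause of the moves below was not tested beyond what fewer arrays or fewer genes imply. For APAP against control at 24 h, the 14 calls were 8 with only the arrays compared and 9 after quantile normalization. For APAP against AMAP, the 0 calls at 2 h were 1 after median centring, 1 with the fixed replicate block and 0 with the random one. The 11 calls at 6 h were 17 with the filter on dim genes, 17 with the fixed replicate block, 16 with the random one and 3 with only the arrays compared. The 4 calls at 24 h were 8 after median centring and 2 with only the arrays compared. Neither block changed a call in AMAP against control at 6 h. At 24 h, where the numbers were not taken to pair the arrays of APAP and control, either block gave 16 calls, with Aurka and Cdc25b added. Leaving out 1 array gave 0 to 3 calls for APAP against control at 2 h, 13 to 22 at 6 h and 3 to 17 at 24 h, and for APAP against AMAP 0 to 1, 5 to 19 and 1 to 4. Leaving out a number gave 0 to 1, 5 to 14 and 2 to 14 for APAP against control, and 0 to 1, 1 to 9 and 0 to 2 for APAP against AMAP. The other comparisons gave 0 calls each time. The split of all genes into higher and lower calls moved with scaling. With median centring it was 54 and 117 in place of 62 and 74 for APAP against control at 2 h, and 518 and 1675 in place of 670 and 1190 at 24 h, where quantile normalization gave 899 and 1013. For APAP against AMAP median centring gave 10 and 44 in place of 19 and 33 at 2 h, and 302 and 1123 in place of 373 and 555 at 24 h. For AMAP against control at 6 h quantile normalization gave 51 and 51 in place of 32 and 59. Signals near background limit dim genes, and the filter kept 11963 genes.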
